A study of Mus musculus with 16 samples.

Results

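The nuclear factor I family comprises 4 genes, Nfia, Nfib, Nfic and Nfix, out of 20660 genes that the arrays of this study name by symbol. Its members were found by matching the transcript accession under which each probe is listed to a RefSeq gene symbol. The family was chosen by its furan change after 18 h in formalin, where probes of Nfib disagreed, so that contrast is described here and not tested. The match gave 11 probes: 2 for Nfia, 5 for Nfib, 3 for Nfic and 1 for Nfix. All 11 stood well above background in at least 1 group and none was saturated or flagged on any array.

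Nuclear factor I proteins are transcription factors that bind DNA as homodimers or heterodimers at a palindrome of TTGGC and GCCAA separated by a short spacer, and more weakly at one arm of it. All members share a similar DNA-binding domain and differ more in the rest of the protein, and each gene is spliced into several isoforms. In liver they bind promoters and enhancers of hepatocyte genes, albumin among them, beside factors such as FOXA, HNF4A and C/EBP.

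The livers were fixed in formalin and embedded in paraffin, and came from female mice of the hybrid strain B6C3F1, which is much used in toxicology, bought at an age of 5 to 6 weeks. The mice were given furan, a small volatile compound that liver enzymes turn into a reactive metabolite, by gavage at 8 mg per kg in corn oil for 21 days, or corn oil alone, and were killed 4 h after the last dose. Tissue lay in formalin, a fixative, for 18 h or 3 weeks, which gave 4 groups: control and furan at 18 h (samples 2, 3, 4 and 6, and 41 to 44) and control and furan at 3 weeks (samples 2, 4 and 6, and 41 to 44). On each of the 16 arrays a liver sample labelled with Cy5 was read against pooled cDNA labelled with Cy3. All values below are log2 of sample over reference, so each probe has a scale of its own and probes are compared only by how they differ between groups. The 3-week control arrays 2.1 and 2.2 share a sample number and were averaged, which left 15 samples. RNA came from 1 section for tissue fixed 18 h and from 2 for tissue fixed 3 weeks. RNA integrity numbers, a measure of how intact RNA is, were given as 1.3 to 2.4 over all samples, so the RNA was degraded. They are not given by group, and the part of degradation in the differences between probes and times was not tested. Time in formalin and number of sections cannot be told apart. In whole liver, fewer cells of a type and less RNA per cell cannot be told apart either.

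Probes well above background made up 44.3% to 50.1% of all probes on the 18 h control arrays, 51.9% to 55.2% on the 18 h furan arrays, 32.3% to 36.7% on the 3-week control arrays and 35.9% to 41.4% on the 3-week furan arrays. This share therefore moved with both furan and time, and its part in the results below was not tested. With 3 or 4 samples a group, the small number of arrays bounds how precise any value can be. Both slides held arrays of all groups, and slide entered each fit as a term.

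The probes of Nfib are listed under 2 transcripts. A_55_P2086687, the brightest by its mean over all arrays, is listed under NM_008687. In the 18 h furan livers it was not the brightest: its signal was 40.4 to 55.8 times the background there, and that of A_55_P2143431 70.1 to 78.3 times. The other four, A_55_P2143431, A_55_P2086682, A_55_P2086692 and A_66_P135165, are all listed under NM_001113209. Nfia has a probe for NM_001122953 (A_66_P115098) and one for NM_010905 (A_55_P2194958). All 3 Nfic probes, A_51_P477419, A_55_P2122329 and A_55_P2122334, are listed under NM_008688, and the Nfix probe A_55_P2085574 under NM_010906. RefSeq lists 9 transcripts for Nfia, 10 for Nfib, 4 for Nfic and 29 for Nfix, so these accessions name only some of the forms that the probes may detect. The probes were not placed on their transcripts, and their positions within the genes are not used here.

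Nfib encodes a member needed for lung maturation and glial development. Its brightest probe, A_55_P2086687, read 0.84, 0.40, 0.78 and 0.87 in the 18 h controls and -1.19, -0.94, -0.82 and -0.65 in the 18 h furan livers. It read 0.30, 0.39 and 0.08 in the 3-week controls and 0.19, 0.17, 0.28 and 0.01 in the 3-week furan livers. All 18 h controls were above every other sample, all 18 h furan livers were below every other sample, and the 3-week groups overlapped between them.

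A_55_P2143431 of the other transcript read -0.18, 0.01, -0.10 and 0.04 in the 18 h controls and 0.13, 0.22, 0.34 and 0.36 in the 18 h furan livers, a group order opposite to that of the brightest probe. At 3 weeks it read -1.02, -1.09 and -1.02 in controls and -1.18, -0.80, -0.82 and -0.85 in furan livers, all below every 18 h sample. A_55_P2086682 read -0.58, -0.76, -0.53 and -0.75 in the 18 h controls and -0.67, -0.60, -0.58 and -0.50 in the 18 h furan livers. Its treatment groups overlapped at 18 h. It read 1.09, 1.33 and 1.42 in the 3-week controls and 1.11, 1.51, 1.38 and 1.50 in the 3-week furan livers, far above every 18 h sample.

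A_55_P2086692 read 0.48, 0.57, 0.76 and 0.57 in the 18 h controls and -0.36, -0.14, -0.01 and 0.02 in the 18 h furan livers, which did not overlap. It read -0.82, -0.67 and -0.65 in the 3-week controls and -0.66, -0.57, -0.69 and -0.72 in the 3-week furan livers. A_66_P135165 read -0.41, -0.62, -0.36 and -0.45 in the 18 h controls and -0.28, -0.30, -0.49 and -0.32 in the 18 h furan livers. At 3 weeks this probe read 1.34, 1.59 and 1.76 in controls and 1.48, 1.49, 1.11 and 1.28 in furan livers. Its treatment groups overlapped at both times, and its 2 times in formalin did not.

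**Figure D1:**
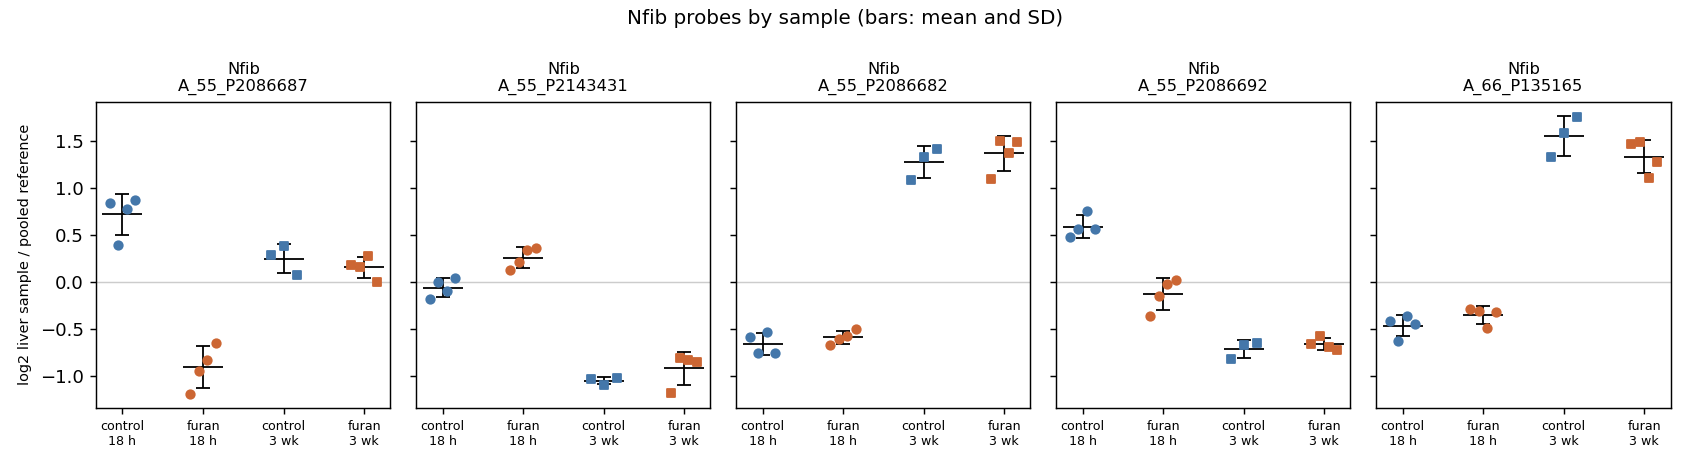
Log2 ratio of liver sample over pooled reference (vertical axis) for each of the 5 Nfib probes in the 4 groups (horizontal axis); points are samples, long bars the group means and whiskers the SD (n = 4, and n = 3 for the 3-week controls). A_55_P2086687 parts control from furan at 18 h with a difference of -1.62, while A_55_P2086682 and A_66_P135165 part 18 h from 3 weeks and show overlapping treatments.

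At 18 h in formalin the furan livers differed from controls by -1.62 (SE 0.10) for A_55_P2086687, a 3.08-fold lower ratio. For the probes of NM_001113209 the differences were -0.72 (SE 0.11) for A_55_P2086692, 0.32 (SE 0.09) for A_55_P2143431, 0.11 (SE 0.09) for A_66_P135165 and 0.07 (SE 0.09) for A_55_P2086682. Probes of the same listed transcript therefore stood on both sides of 0, and the 5 probes spanned 1.94. With median centring of each array in place of loess, A_55_P2086687 was at -1.11, A_55_P2086692 at -0.35 and A_55_P2143431 at 0.88. A_66_P135165 was then at 0.34 and A_55_P2086682 at 0.52, so the sizes for all 5 probes depend on the normalization. The contrast chose the family, so no test is given for it.

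At 3 weeks in formalin, which the choice did not use, none of the 5 Nfib probes passed the test for furan (limma, Benjamini-Hochberg adjusted p between 0.575 and 0.908). Among all 29690 probes tested, 35 passed, or 0.118%, and 4102 had an unadjusted p under 0.05. A_55_P2086687 was 0.16 ± 0.11 (SD, n = 4) in furan livers and 0.25 ± 0.16 (SD, n = 3) in controls, a difference of -0.09 with a 95% interval from -0.40 to 0.21. The change of the furan difference between the times was not tested, because the 18 h side of it chose the family. The differences of the other four probes ran from -0.22 (A_66_P135165, interval -0.57 to 0.12) to 0.13 (A_55_P2143431, interval -0.17 to 0.44). Centring each array on its median in place of the loess normalization turned the difference of A_55_P2086687 to 0.32 (adjusted p = 0.298). The 5 probes spanned 0.35 here, and 9 of the 11 genes with 5 probes above background spanned more.

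Between the times in formalin, averaged over control and furan livers, every Nfib probe passed the limma test, 3 higher at 3 weeks and 2 lower. A_55_P2086682 rose 3.86-fold (1.95, SE 0.08, adjusted p = 2.51e-12) and A_66_P135165 rose 3.62-fold (1.86, SE 0.09, adjusted p = 7.26e-12). A_55_P2143431 fell 2.12-fold (-1.08, SE 0.07, adjusted p = 9.96e-10) and A_55_P2086692 fell 1.89-fold (-0.92, SE 0.08, adjusted p = 1.45e-08). The fall of A_55_P2086692 joined -1.30 in controls and -0.54 in furan livers, and its 3-week signal was only 2.72 to 4.38 times the background. For A_66_P135165 the 18 h signal was only 3.17 to 5.46 times the background. These 4 probes, all listed under NM_001113209, kept their signs on both slides and under every alternative that was run. With median centring A_55_P2143431 was at -1.76, A_55_P2086692 at -1.62, A_66_P135165 at 1.24 and A_55_P2086682 at 1.32. They form 2 pairs, one rising and one falling, under a single transcript accession. The samples of the 2 times did not overlap for any of the 4.

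A_55_P2086687 rose 1.23-fold with time (0.29, SE 0.09, adjusted p = 0.0101), and its 18 h and 3-week samples overlapped. With the sample number as a block in the fit, it was at 0.23 and did not pass (limma adjusted p = 0.101). The average joined opposite values: -0.47 (SE 0.14) in controls and 1.06 (SE 0.13) in furan livers. Within slides its average was 0.48 and 0.11. With median centring the value turned to -0.14 (adjusted p = 0.306), so the direction of this probe depends on the normalization. Median centring moved the median difference of all probes with time to -0.26, from 0.01 with loess. The gap between the probes is a comparison within arrays, and the span of Nfib is measured against that of other genes below.

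Over all probes 74.2% passed for time, 37.3% higher and 36.9% lower, and 16.6% passed with a difference of at least 1 in size, so a change with time in a single probe was common. Of the calls for time 50.3% were higher, and 24.7% with median centring. Probes of 1 gene that passed in opposite directions were also common: 867 of 3018 genes with at least 2 probes above background had them, or 28.7%. Of the 11 genes with 5 such probes, 7 had them. Nfib spanned 3.03 from its lowest to its highest probe, and none of the other ten genes with 5 probes spanned more. The next was Tpm1, which encodes a tropomyosin of the actin filament, at 2.59, and the median of the 11 genes was 1.85.

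**Figure D2:**
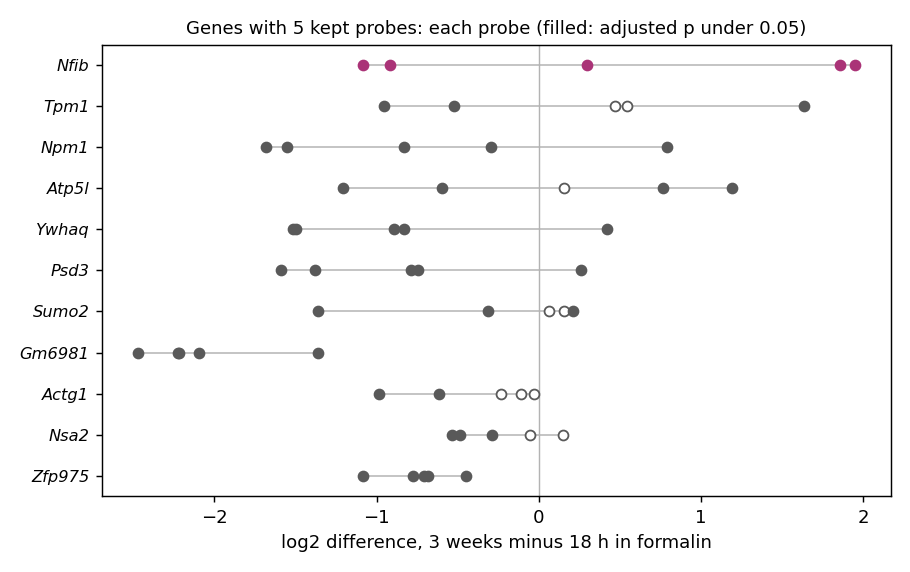
Difference between 3 weeks and 18 h in formalin (log2, averaged over control and furan livers; horizontal axis) of every probe of the 11 genes with 5 probes above background, ordered by their span; filled points passed limma at an adjusted p of 0.05. Nfib spans 3.03, from -1.08 to 1.95, against a median span of 1.85; A_55_P2086687, at 0.29, is the probe whose sign turns with median centring.

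A direct measure of how the Nfib probes part is the log2 ratio of A_55_P2086687 minus the mean of the other four in the same sample. It was 1.02, 0.60, 0.84 and 1.02 in the 18 h controls and -0.89, -0.74, -0.64 and -0.54 in the 18 h furan livers. At 3 weeks it was 0.15, 0.10 and -0.30 in controls and 0.00, -0.24, 0.03 and -0.30 in furan livers. The 18 h groups lay to either side of all 3-week samples, and the 3-week groups overlapped. The 3-week means were -0.02 ± 0.24 (SD, n = 3) and -0.13 ± 0.17 (SD, n = 4), a difference of -0.11 (two-sided exact permutation test over 35 arrangements, p = 0.514, the smallest possible being 0.0286). Averaged over treatments the measure changed by -0.16 with time (two-sided exact permutation within treatments, p = 0.514, smallest possible 0.000408). That average joined opposite changes: the mean went from 0.87 at 18 h to -0.02 at 3 weeks in controls and from -0.70 to -0.13 in furan livers. Both tests have an adjusted p of 0.514.

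The mean of the other four joins probes that rose with probes that fell. Against each probe alone, the time difference of A_55_P2086687 was 1.38 for A_55_P2143431 (p = 0.000816), 1.21 for A_55_P2086692 (p = 0.000408), -1.65 for A_55_P2086682 (p = 0.000408) and -1.56 for A_66_P135165 (p = 0.000816), all by the same exact permutation test. These p-values are unadjusted alternatives to the test above. They rest on the same values as the time tests of the single probes and add no separate evidence. At 3 weeks furan against control gave no p under 0.05 for any of the 4.

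**Figure D3:**
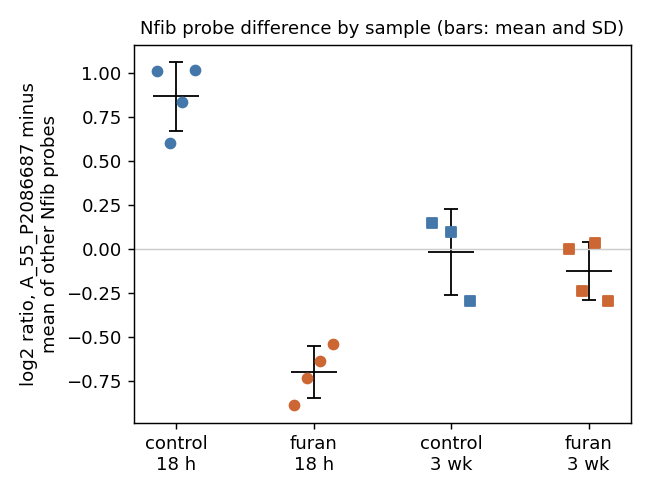
Log2 ratio of A_55_P2086687 minus the mean of the other four Nfib probes (vertical axis) in each sample of the 4 groups (horizontal axis), with the group mean and SD. The means are 0.87 and -0.70 at 18 h for control and furan, and -0.02 and -0.13 at 3 weeks.

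Nfia encodes a member best known for starting glial development. A_66_P115098 read 0.49, 0.78, 0.92 and 0.55 in the 18 h controls and -0.44, -0.14, -0.34 and -0.24 in the 18 h furan livers. The 3-week values were -0.28, -0.06 and -0.18 in controls and -0.08, -0.18, -0.19 and -0.63 in furan livers. The signal was only 2.66 to 3.76 times the background at 3 weeks, though counted as well above it on every array. Only the 18 h controls stood apart, above all other samples, and the other groups overlapped with their neighbours in the order of means. The 18 h furan difference was -0.98 (SE 0.10), or -0.70 with median centring. Its time difference of -0.42 (SE 0.09, limma adjusted p = 0.000337) joined -0.86 in controls and 0.02 in furan livers. It was -1.02 with median centring and -0.73 with Agilent's log ratio.

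The other Nfia probe, A_55_P2194958, read 0.34, 0.51, 0.37 and 0.54 in the 18 h controls and 0.02, 0.39, 0.45 and 0.33 in the 18 h furan livers, which overlapped. At 3 weeks it read -0.38, -0.21 and -0.06 in controls and -0.38, -0.11, -0.50 and -0.46 in furan livers, all below every 18 h sample. It fell with time by 0.66 on the log2 scale (SE 0.09, limma adjusted p = 5.08e-06), by a like amount in controls (-0.65) and furan livers (-0.66). It was well above background on only 2 of 4 control and 2 of 4 furan arrays at 3 weeks, and its time difference was -1.09 with median centring and -1.26 with Agilent's log ratio. Its 18 h furan difference was -0.14 (SE 0.11), which median centring turned to 0.11. At 3 weeks the furan difference was -0.09 (interval -0.42 to 0.24) for A_66_P115098 and -0.15 (interval -0.48 to 0.18) for A_55_P2194958, and neither passed (limma adjusted p = 0.841 and 0.719). Median centring turned that of A_66_P115098 to 0.01. The Nfia probes spanned 0.24 with time averaged over treatments, and 2013 of 2586 genes with 2 probes spanned more. In controls they spanned 0.21 with time, and in furan livers 0.68, where 1231 of the 2586 genes spanned more. For furan at 18 h they spanned 0.83.

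Nfic encodes a member required for tooth root formation. Its probe A_51_P477419 read -0.50, -0.52, -0.46 and -0.44 in the 18 h controls and -0.35, -0.44, -0.15 and -0.11 in the 18 h furan livers. It read 0.60, 0.38 and 0.41 in the 3-week controls and 0.26, 0.44, 0.35 and 0.30 in the 3-week furan livers. The 3-week samples all lay above the 18 h samples, and the 3-week treatments overlapped.

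A_55_P2122329 read 0.46, 0.28, 0.39 and 0.30 in the 18 h controls and -0.54, -0.68, -0.56 and -0.35 in the 18 h furan livers. The 3-week values were 0.83, 0.85 and 0.60 in controls and 0.46, 0.59, 0.57 and 0.58 in furan livers. None of the 4 groups overlapped with its neighbour in the order of means, but the lowest 3-week control (0.595) lay close to the highest 3-week furan liver (0.590).

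A_55_P2122334 read 0.38, 0.47, 0.43 and 0.30 in the 18 h controls and 0.31, 0.11, 0.24 and 0.34 in the 18 h furan livers. At 3 weeks it read -1.40, -1.03 and -1.39 in controls and -1.50, -1.72, -1.77 and -1.43 in furan livers. It was the only one of the 3 that was lower at 3 weeks, and its 18 h treatments overlapped.

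With time, A_51_P477419 rose by 0.77 (SE 0.07, limma adjusted p = 4.38e-08) and A_55_P2122329 by 0.75 (SE 0.07, adjusted p = 9.89e-08), while A_55_P2122334 fell 3.39-fold (-1.76, SE 0.08, adjusted p = 9.68e-12). All 3 kept their sign and passed under each alternative in which they were fitted, but median centring brought A_51_P477419 to 0.41 and A_55_P2122329 to 0.29. Their span was 2.53, and 23 of 363 genes with 3 probes spanned more. A single transcript accession thus covers probes that moved apart for Nfic as for Nfib.

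The 18 h furan differences of Nfic were 0.22 (SE 0.09) for A_51_P477419, -0.89 (SE 0.09) for A_55_P2122329 and -0.14 (SE 0.09) for A_55_P2122334. With median centring the last turned to 0.40, while A_55_P2122329 came to -0.37 and A_51_P477419 to 0.78. At 3 weeks no Nfic probe passed (limma adjusted p between 0.379 and 0.728). The furan livers did not overlap with controls for A_55_P2122334 (-0.33, interval -0.67 to 0.01, unadjusted p = 0.0566) and A_55_P2122329 (-0.21, interval -0.50 to 0.09), both lower. Over all probes 13.4% had 3-week groups that did not overlap. Median centring turned A_55_P2122329 to 0.17 and A_51_P477419 from -0.13 to 0.27.

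Nfix encodes a member known for the switch to fetal muscle. Its probe read 0.46, 0.38, 0.66 and 0.72 in the 18 h controls and -0.01, 0.18, 0.16 and 0.34 in the 18 h furan livers, a difference of -0.39 (SE 0.10), or -0.09 with median centring. The 3-week values were -1.11, -1.66 and -1.04 in controls and -1.06, -0.99, -1.35 and -1.23 in furan livers. It was well above background on all 8 of the 18 h arrays and on none of the 8 arrays at 3 weeks, so its 3-week level is only bounded. For the bound, each 3-week array took the higher of the lowest signal counted as well above background and the signal of the probe itself, which was the higher on all furan arrays. For this the mean intensities of sample and reference were first brought to 1 distribution over all arrays. On that scale Nfix was at least 3.39-fold lower at 3 weeks than at 18 h in controls. It was at least 2.42-fold lower in furan livers, or 2.87-fold over both. These bounds hold for this processing only, since the fitted difference without background subtraction, -1.08, was a smaller fall. The fit gave an adjusted p of 5.18e-10 (limma), with a fitted difference of -1.58 that is no measured size and ran from -3.09 to -1.08 over the alternatives. At 3 weeks neither treatment was well above background, with a signal 2.02 to 2.59 times the background in controls and 2.01 to 2.45 times in furan livers. No fold between the treatments is given.

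**Figure D4:**
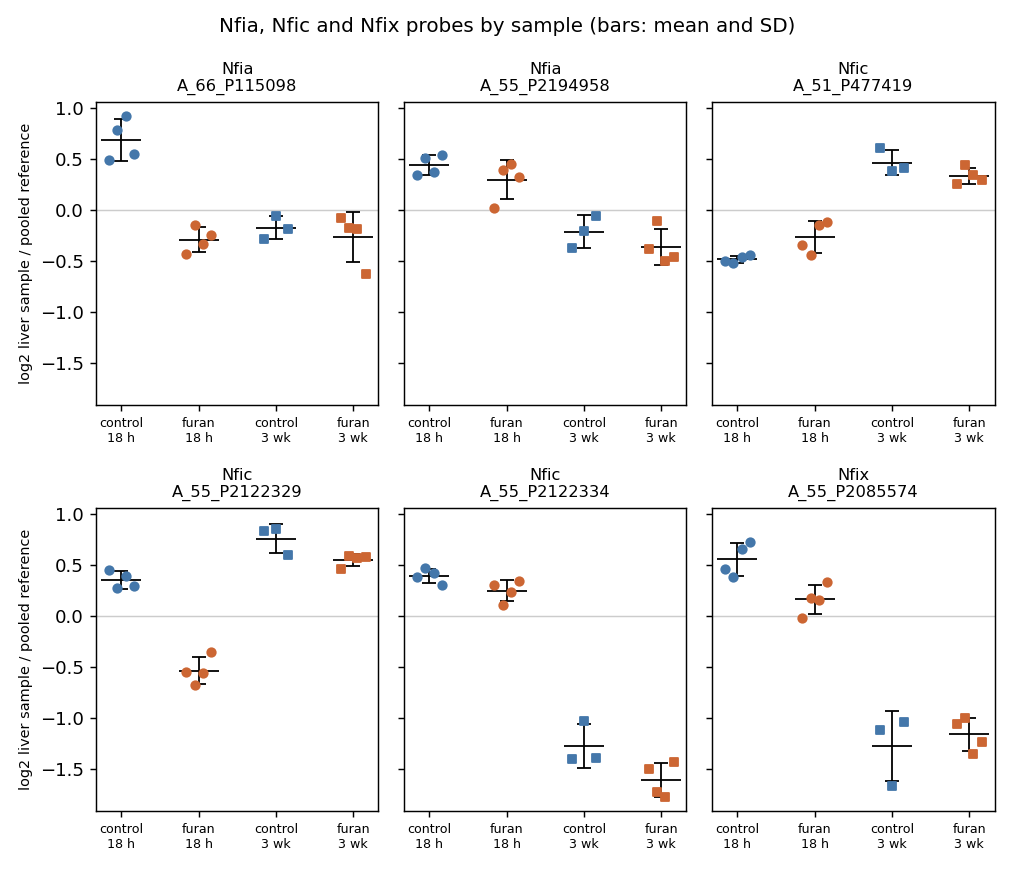
Log2 ratio of liver sample over pooled reference (vertical axis) for the probes of Nfia, Nfic and Nfix in the 4 groups (horizontal axis); points are samples, long bars the group means and whiskers the SD (n = 4, and n = 3 for the 3-week controls). The 3-week samples lie above the 18 h samples for A_51_P477419 and below them for A_55_P2122334 and for Nfix, which was not well above background at 3 weeks.

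Over the family, all 11 probes passed the test for time, 5 higher and 6 lower, against 74.2% of all probes. All 11 differences had the same sign on both slides. For 9 of the 11 probes the 18 h samples did not overlap with the 3-week samples, which held for 35.3% of all probes. With median centring 4 probes were still higher and 6 lower, and A_55_P2086687 of Nfib turned. For furan at 3 weeks 0 of 11 passed against 0.118% of all probes, and 0 passed under each alternative run, while 2 had groups that did not overlap. For furan at 18 h the fit over all probes called 1 member probe higher and 5 lower, where 47.2% of all probes were called. There 7 had groups that did not overlap, against 39.2% of all probes, and nothing is read from these counts because this contrast chose the family. The probes with the lowest 18 h furan values were 1 each of Nfib, Nfia and Nfic, and each of those genes also had a probe between -0.14 and 0.11. With median centring these latter probes lay between 0.11 and 0.52.

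**Figure D5:**
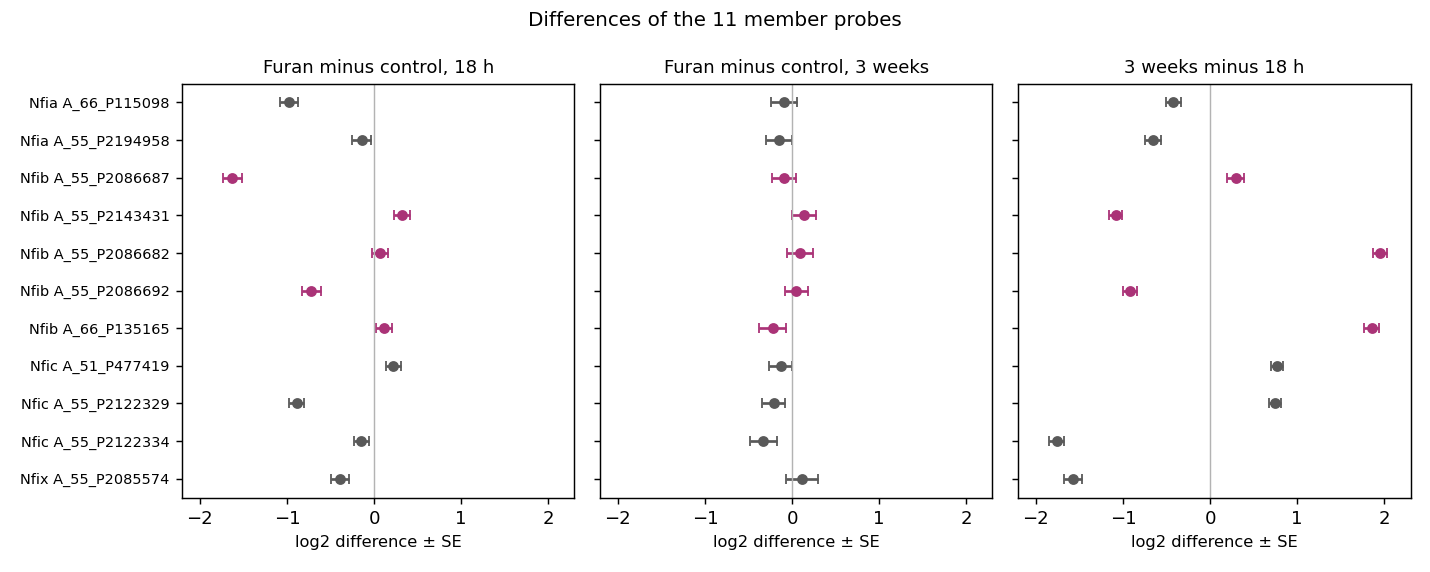
Log2 differences (horizontal axis, with SE) of the 11 member probes (vertical axis, Nfib in purple) for furan against control at 18 h, furan against control at 3 weeks, and 3 weeks against 18 h in formalin. The 3-week furan differences lie between -0.33 and 0.13, and the time differences between -1.76 and 1.95. With median centring A_55_P2086687 turns in both, as do 3 other probes for furan at 3 weeks and 2 for furan at 18 h. Nfix at 3 weeks is a fitted value from signal not well above background.

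The genes whose pattern over the 15 samples was most like each probe were found among 13051 genes by Pearson's r, as a description; all values share the arrays and the pooled reference, and the samples include the 18 h livers by which the family was chosen. For A_55_P2086687 of Nfib they were Dipk2a, Aldh6a1 (a mitochondrial enzyme of valine breakdown) and Lsm10, with r of 0.96, 0.96 and 0.95. For A_55_P2143431 they were Igf1 (a growth factor secreted by hepatocytes), Thoc7 and Rpl37, each with r of 0.99. For A_55_P2086692 they were Nab1, Mlxipl (a glucose-responsive transcription factor) and Mbd2, with r between 0.98 and 0.99. The rising pair gave other names: Mink1, Gt(ROSA)26Sor and Brd3 for A_55_P2086682 and Ncoa3, Myo5c and Cd82 for A_66_P135165, with r between 0.99 and 1.00.

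For the brightest probe of the other genes the nearest were Trio, Wsb2 and Smurf1 for Nfia (r 0.97, 0.96 and 0.96), Hrh4, Clasrp and Tbx22 for Nfic (r 0.99, 0.98 and 0.97) and Ppif, Slc43a3 and Maz for Nfix (r 0.99, 0.99 and 0.98). No member probe was nearer than the last of these genes for any of the 8 probes examined. The closest pair of member probes was A_55_P2086682 and A_66_P135165 of Nfib (r = 0.98). The nearest member to A_55_P2086687 was A_55_P2122329 of Nfic (r = 0.81), not another Nfib probe. An r over 0.9 was reached by 49 genes for A_55_P2086687 and by 1705 for A_55_P2086682.

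Of 17 genes described as direct or functional targets of the family, 12 had probes above background, 13 probes in all. At 3 weeks, where 0.118% of all probes passed for furan, 1 of the 13 rose with furan and none fell. This was Afp, the fetal serum protein alpha-fetoprotein, which read -0.12, -0.13 and -0.25 in controls and 0.99, 1.27, 1.40 and 1.23 in furan livers. The groups were far apart, with a difference of 1.39 (SE 0.14, limma adjusted p = 0.00831). The call was lost with Agilent's own log ratio (adjusted p = 0.129) and without control 2 (0.0759), control 6 (0.110) or furan sample 44 (0.0514), with values from 1.31 to 1.47 over the samples left out. Pck1, an enzyme of glucose synthesis, differed by -0.61 and did not pass (adjusted p = 0.173). Cdkn1a, an inhibitor of the cell cycle, had probes on both sides of 0 that did not pass: A_51_P363947 was higher in furan livers (adjusted p = 0.0722) but none of the 3-week controls read it clearly over background, and A_55_P1986282 differed by -0.49 (adjusted p = 0.497). The median of the 13 was 0.13 and that of all probes -0.00.

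With time, 5 target probes rose and 5 fell, where 74.2% of all probes passed. Their median was 0.06, against 0.01 for all probes. The fits of the Cdkn1a probes passed in both directions, A_51_P363947 lower (limma adjusted p = 2.30e-08) and A_55_P1986282 higher (adjusted p = 1.73e-06). No size is given, since the first was well above background on 0 of 4 control arrays at 3 weeks and the second on 2 of 4 control arrays at 18 h. Fabp4, a fatty acid carrier, fell by 0.85 (adjusted p = 5.26e-07) and Afp rose by 0.81 (adjusted p = 9.17e-07). At 18 h furan livers differed from controls by 0.85 for Afp, by -0.72 for Alb and by -1.20 for Pck1. The Cdkn1a probes parted, with 1.89 for A_51_P363947 and 0.02, not called, for A_55_P1986282. Of the 13 target probes 5 were called higher and 2 lower, where 47.2% of all probes were called.

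Promoter sequence is shown for Alb and Afp, neighbouring genes of the list that differed in opposite directions at 18 h, to give the letters that the family is known to bind. The half-site TTGGCA was searched on both strands in RefSeq promoters of 300 bases (250 before to 50 after the start, GRCm38.p6). It was present in 4640 of 32851 promoters, or 14.1%, and in 6 of the 13 promoters of the list. The whole palindrome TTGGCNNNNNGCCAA, which does not contain the half-site letters in full unless the spacer starts with A or ends with T, was in 12 of all promoters and in none of the list. Promoters were held for 3 members, Nfia, Nfic and Nfix, and none of their 6 had the half-site. The windows below lie on the plus strand of chromosome 5, at chr5:90460760-90460799 for Alb and chr5:90490600-90490639 for Afp, with the half-site in capitals. It starts 93 bases before the start of Alb and 97 before that of Afp. A match describes the letters only.
Alb: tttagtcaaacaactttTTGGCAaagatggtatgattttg
Afp: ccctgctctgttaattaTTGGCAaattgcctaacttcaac

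Of 12 liver transcription factors that bind with or near the family, all had probes above background, 15 in all. None passed for furan at 3 weeks by limma (lowest adjusted p = 0.218, Cebpa, -0.43). With time 6 probes rose and 7 fell, where 74.2% of all probes passed. For Nr5a2, a nuclear receptor of bile acid synthesis, A_51_P514449 fell by 1.44 on the log2 scale (limma adjusted p = 2.30e-11) and the other probe, at 0.03, did not pass (adjusted p = 0.718). Hnf4a, a nuclear receptor that maintains hepatocyte identity, fell by 1.00 (adjusted p = 6.36e-10), while A_55_P2067533 of Foxa2, a pioneer factor, rose by 1.27 (adjusted p = 1.06e-08) and its other probe, at -0.00, did not pass (adjusted p = 0.973). At 18 h 6 of the 15 probes were called higher and 3 lower with furan, where 47.2% of all probes were called. The lowest value was -1.32 for a probe of Rxra, whose other probe was at 0.06.

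The label of liver was checked against marker genes. As a background for the counts below, 47.2% of all probes were called for furan at 18 h, 6056 higher and 7969 lower of 29690. For furan at 3 weeks 0.118% passed, and for time 74.2%. All 6 hepatocyte markers were well above background on every array. Of the 7 hepatocyte marker probes, 6 were called lower and 0 higher with furan at 18 h (median -0.84), 0 passed at 3 weeks and 2 rose and 4 fell with time. Their mean log2 ratio ran from 0.43 to 0.57 in the 18 h controls, -0.32 to -0.17 in the 18 h furan livers, -0.65 to -0.30 in the 3-week controls and -0.96 to -0.48 in the 3-week furan livers. It therefore moved in the direction of A_55_P2086687 at 18 h, and its part in that value was not tested. Of the cholangiocyte markers, Krt19 was above background on no array, and Sox9, Epcam and Spp1 on none at 3 weeks; of 2 cholangiocyte probes 1, of Spp1, was called lower with furan at 18 h (-0.66). For macrophage markers the ranges were -0.07 to 0.59, -0.33 to -0.15, 0.18 to 0.47 and -0.01 to 0.14 in the same order of groups, and 3 of 7 probes were called lower with furan at 18 h. Of 6 stellate cell probes 2 were higher and 3 lower, of 6 endothelial probes 1 higher and 3 lower, of 2 lymphocyte probes 1 lower, and of 3 erythroid probes 2 lower at 18 h. None of these lists had a probe that passed for furan at 3 weeks.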

How the data were processed

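The authors read the arrays with Agilent Feature Extraction 11.0.1.1, per the file headers. The deposited scanner files give spot and background signals as intensity, and Agilent's log10 ratio of sample over reference, per the file headers. The authors' deposited value table holds log2 ratios whose normalization method is not given in the sources used here. Set against the scanner values after loess without background subtraction, it correlated at 0.896 to 0.999 by array. The lowest values, 0.900 and 0.896, were those of the 3-week control arrays 2.1 and 2.2. The direction of the table is sample over reference, and whether its values were centred further stays unknown. Its column medians were 0.000797, 0.00330, -0.00510 and 0.00438 in 18 h controls, 0.0247, 0.0204, 0.0163 and 0.0187 in 18 h furan livers, -0.00872, -0.00919, -0.00159 and -0.00869 in 3-week controls (2.1, 2.2, 4, 6) and -0.00715, -0.00825, -0.00445 and -0.00133 in 3-week furan livers.

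Here median signals were corrected by normexp (offset 50) and loess within arrays. Flagged spots were dropped and the spots of a probe averaged, and 29690 of 55681 probes were kept that stood well above background on at least 3 arrays of a group. R 4.3.3 with limma 3.58.1 fitted every kept probe with a slide term (the average of arrays 2.1 and 2.2, correlated at 0.923, took a midway slide value), two-sided, with Benjamini-Hochberg adjustment and a threshold of 0.05. The fits were tested on simulated data. Accessions of 27235 probes matched a RefSeq symbol and those of 28446 did not. The members and lists were chosen with earlier results of these data known. Named are every member probe, up to 3 list genes with the smallest p per comparison, with Alb and other list probes added after their values were seen, and the 3 genes most like each probe. Whether 18 h and 3-week samples of a number came from 1 animal is not stated, and p-values measure the spread between these samples. The deviations of 7 shared numbers correlated between -0.218 and 0.160 across the times. With so few samples a group, this cannot show whether the samples were paired. The main tests for time took them as unpaired. Other settings tried concerned the background, the normalization, filters, the slide term, probes per gene, arrays 2.1 and 2.2, the number as a block, the authors' values and each sample left out. Figures were drawn with matplotlib.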

Additional observations from a re-analysis of the deposited data

Results flagged for a closer look

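Among 33 sets of 4 samples examined (11 probes in 3 groups), 2 held a sample far from the other three, where chance marks about 1 in 20 sets. Both were furan sample 41 at 3 weeks. For A_55_P2143431 of Nfib its gap to the nearest sample was 0.869 of the range of the group (-1.18 against -0.85 to -0.80). For A_55_P2122329 of Nfic the gap was 0.88 of the range (0.46 against 0.57 to 0.59).

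A_55_P2086687 of Nfib differed in opposite directions with time in the 2 treatments, with no overlap in either: by -0.471 in controls and by 1.06 in furan livers. The difference between the treatments was not tested, because its 18 h side chose the family.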

How the results depend on the processing

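Of the alternatives, those listed here moved a count by over 1.5 times, changed a sign or crossed the threshold. The cause was not tested. For furan at 3 weeks 35 probes passed; the count was 449 without background subtraction, 2317 with median centring, 312 with the authors' values, 130 with probes above background on every array, 72 without a slide term, 322 with arrays 2.1 and 2.2 separate and 0 with Agilent's log ratio (limma; 3564 at an unadjusted p under 0.05). Leaving out each sample gave 0 to 770: 3, 770 and 0 without controls 2, 4 and 6 (3221 at an unadjusted p under 0.05 without control 6), and 12, 9, 7 and 5 without furan samples 41 to 44. No member probe passed in any of these. With only probes above background on every array, fewer probes were tested, and 12176 passed for time and 9125 for furan at 18 h (22017 and 14025 otherwise).

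Calls that were higher made up 74.3% for furan at 3 weeks (45.4% without background subtraction, 89.9% with median centring, 53.8% with the authors' values, 41.5% on every array, 62.5% without slide, 37.0% with 2.1 and 2.2 separate, 13.2% to 100% leaving out samples), 50.3% for time (60.7% on every array, 24.7% with median centring) and 43.2% for furan at 18 h (78.6% with median centring, 55.0% with the authors' values). Median centring moved the median difference of all probes to 0.09 for furan at 3 weeks and 0.10 at 18 h, and Agilent's log ratio moved that with time to -0.15.

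For furan at 18 h, 1 member probe was called higher, but 0 with Agilent's log ratio, 5 with median centring, 2 with the authors' values, 2 on every array and 1 to 2 leaving out samples. With the brightest probe per gene, which keeps 4 member probes, 3 were called lower at 18 h, and 4 passed for time, 2 higher and 2 lower.

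Nfix was not well above background in either 3-week group, so its fitted furan values there measure no change. They are given only to show that their sign is not settled. The values were 0.11, -0.0332 without background subtraction, -0.0178 with the authors' values, and -0.14 to 0.26 leaving out samples. Median centring gave 0.0074 for A_66_P115098 of Nfia, 0.32 for A_55_P2086687 of Nfib, 0.27 for A_51_P477419 and 0.17 for A_55_P2122329 of Nfic, and -0.14 for A_55_P2086687 with time. Leaving out samples gave -0.18 to 0.0139 for A_66_P115098, -0.00094 to 0.18 for A_55_P2086682 and -0.0028 to 0.11 for A_55_P2086692.

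The Nfib probe difference was 0.056 for furan at 3 weeks and 0.066 with time under median centring, and 0.011 with time from the authors' values. Against single probes with time it was 1.38 (A_55_P2143431), 1.21 (A_55_P2086692), -1.65 (A_55_P2086682) and -1.56 (A_66_P135165), and 0.127 against A_66_P135165 for furan at 3 weeks.

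With the sample number as a replicate block, 20242 probes passed for time and 10 of 11 member probes, 4 higher and 6 lower; A_55_P2086687 of Nfib did not (0.23, adjusted p = 0.101). The block gave -0.089 for the Nfib probe difference (exact permutation p = 0.812) and changed no other member call. Of 7 shared numbers, 1 correlated best with its own number, which cannot decide whether the samples were paired. A_51_P363947 of Cdkn1a at 3 weeks passed with median centring, the authors' values, no slide term, 2.1 and 2.2 separate and without control 4, and Foxa2 with median centring. Signal near background limits Nfix, A_55_P2194958 of Nfia and A_51_P363947 of Cdkn1a at 3 weeks. Low signal, though counted as well above background, also limits A_66_P115098 of Nfia and A_55_P2086692 of Nfib at 3 weeks. The same holds for A_66_P135165 of Nfib at 18 h.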
